A study of Mus musculus with 2 samples.

Results

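The islet hormones are the peptides that the endocrine cells of the pancreas release into the blood, and their transcripts are described here in whole pancreas of adult male offspring after a short maternal diet. The 8 genes considered were Ins1, Ins2, Iapp, Gcg, Sst, Ppy, Pyy and Ghrl, and every probe set whose platform gene symbol was one of them, alone or among several, was taken. This gave 10 probe sets for 7 of the 8 genes, among 18193 genes with a probe set of a single symbol on the array. All 10 carried 1 symbol, and no probe set carried the symbol Ins1, which was therefore not analysed here by name. The dams, C57BL/6J mice, ate either control diet or threonine-deficient diet between embryonic days 12.5 and 14.5 of the pregnancy. Their sons were weaned at 3 weeks and then received control diet to 10 weeks of age, and they were not treated themselves after birth. Each group was 1 pool of pancreas RNA on 1 Affymetrix mouse 430 2.0 array, and the sources used here do not give the number of animals in a pool. No value below has a replicate, and each difference is between these pools.

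Hormone genes mark the islet cell types. Beta cells secrete insulin, which in mice comes from both Ins1 and Ins2, together with islet amyloid polypeptide (Iapp, amylin). Alpha cells secrete glucagon, delta cells somatostatin, PP cells pancreatic polypeptide and epsilon cells ghrelin, while peptide YY is found in several islet cell types of the mouse. Insulin lowers and glucagon raises blood glucose, and somatostatin restrains the release of both from its neighbours in the islet. Islets are a small part of the organ, which is mostly acinar tissue, but their hormone transcripts are abundant.

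Upstream sequences of 4 hormone genes are shown here because these genes cover the widest difference among the hormones, from Sst, with the lowest ratio, to Ppy, whose signal was almost the same in both pools. Each is the 250 bases before a transcription start in RefSeq, build GRCm38.p6, written 5′ to 3′ on the gene's strand. Capitals mark matches, on either strand, to the cAMP response element TGACGTCA, the TATA box TATAAA and the homeodomain core TAAT.
Sst, chr16:23890845-23891094, minus strand: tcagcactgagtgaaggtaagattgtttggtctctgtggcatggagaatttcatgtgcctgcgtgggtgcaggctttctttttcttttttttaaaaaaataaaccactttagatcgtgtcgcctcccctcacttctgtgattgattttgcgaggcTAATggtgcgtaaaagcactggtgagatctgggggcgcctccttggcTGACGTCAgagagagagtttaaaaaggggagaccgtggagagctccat
Ppy, chr11:102101320-102101569, minus strand: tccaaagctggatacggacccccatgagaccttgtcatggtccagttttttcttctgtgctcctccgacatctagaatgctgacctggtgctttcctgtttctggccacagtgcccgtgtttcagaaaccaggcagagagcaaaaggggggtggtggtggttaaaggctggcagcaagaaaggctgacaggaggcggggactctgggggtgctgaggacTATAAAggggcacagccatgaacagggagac
Iapp, chr6:142298175-142298424, plus strand: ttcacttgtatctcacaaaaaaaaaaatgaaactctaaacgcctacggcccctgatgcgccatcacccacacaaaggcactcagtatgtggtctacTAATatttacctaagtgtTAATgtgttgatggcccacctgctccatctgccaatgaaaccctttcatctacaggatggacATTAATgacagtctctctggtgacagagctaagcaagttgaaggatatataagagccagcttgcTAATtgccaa
Gcg, chr2:62483654-62483903, minus strand: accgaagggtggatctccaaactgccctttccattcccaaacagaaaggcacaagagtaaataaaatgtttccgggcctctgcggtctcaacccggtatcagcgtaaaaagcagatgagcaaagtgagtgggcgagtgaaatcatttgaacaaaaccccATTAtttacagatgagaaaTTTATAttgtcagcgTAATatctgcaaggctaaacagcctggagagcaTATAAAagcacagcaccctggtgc

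The Sst sequence held the full palindromic cAMP response element, whose first base lay 48 bases before the start, and 1.79% of 32851 promoter windows of 300 bases (250 before and 50 after a start) held one. None of the windows of the other hormone genes held it. TATAAA was present in the windows of Gcg, with a match 24 bases before the start and another on the opposite strand 72 bases before it, and of Ppy, with a match 31 bases before it, against 13.6% of all windows. TAAT, the core bound by homeodomain factors such as PDX1, occurred 5 times in the Iapp window, 3 times in that of Ins1, 2 times in that of Gcg and 1 time in that of Sst, and 58.0% of all windows held at least 1. In the Iapp sequence a TAAT on each strand overlapped in the run ATTAAT. Windows of Ppy, Pyy and Ghrl held no TAAT. A window was at hand for 7 of the 8 genes, Ins2 being the exception. The GC content ran from 44.3% for Iapp to 61.0% for a Pyy window, around a median of 52.7% for all windows. Matches of this kind describe the letters only.

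The hormone signals were lower in the threonine-deficient pool in most probe sets, and Sst differed most. A probe set counted as measured when its signal exceeded 264.9 on at least 1 array, which was the larger of the values at percentile 60 of each array, and lower signals were raised to this floor. Of the 10 hormone probe sets, 9 passed, and 8 of these 9 had a lower signal in the threonine-deficient pool, where 48.8% of all 19818 probe sets above the floor did. The share was higher among bright probe sets, from 50.6% of the 500 nearest in signal to Ppy to 71.8% of those nearest to an Iapp probe set, and 4 of the 9 read the same gene, Iapp. Only 1 hormone probe set, that of Sst, was at least 1.5-fold lower, against 5.55% of all probe sets, and none was at least 2-fold lower, against 0.868%. None was at least 1.5-fold higher, against 8.01%. Taken by gene, with the brightest probe set for each, all 6 measured hormones had lower signals, where 49.9% of 10758 genes did, and their median log2 ratio of threonine-deficient over control was −0.35 beside 0.00 for all genes. The 6 ratios ranged from −0.92 to −0.02. In whole tissue, fewer cells of a type and less RNA per cell cannot be told apart.

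**Figure D1:**
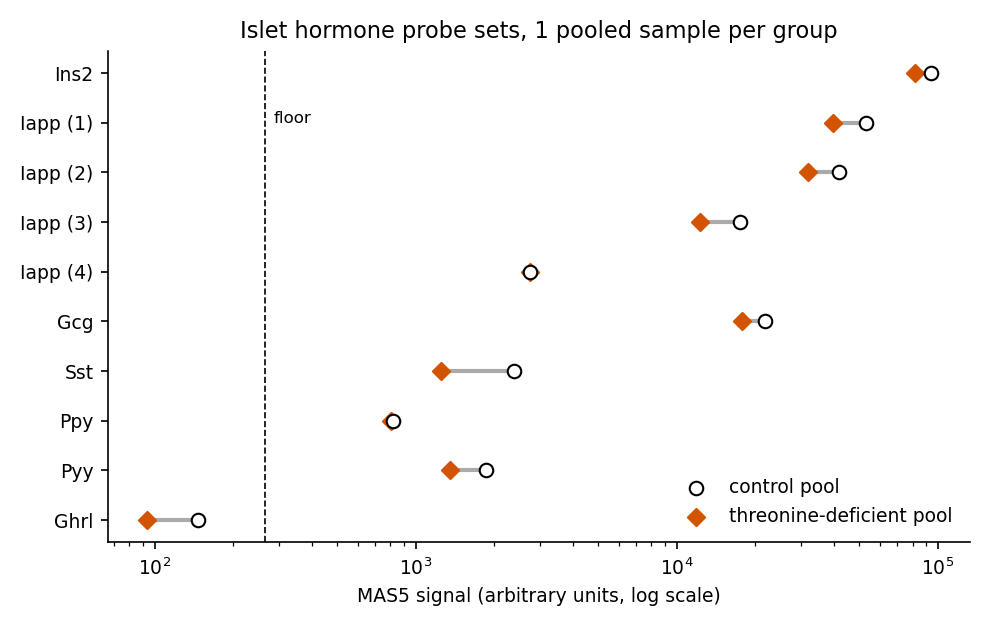
MAS5 signal (arbitrary units, log axis) of each of the 10 islet hormone probe sets in the control pool (open circles) and the threonine-deficient pool (diamonds), with Iapp probe sets numbered by brightness and the floor of 264.9 as a dashed line. The symbols overlie each other for Ppy and the dimmest Iapp probe set and lie farthest apart for Sst and Ghrl, the latter below the floor on both arrays.

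Ins2, the insulin gene that the array reads by name, had a probe set, 1422446_x_at, that read 93733 in the control pool and 81745 in the threonine-deficient one. The threonine-deficient value was 87.2% of the control value, a log2 ratio of −0.20. The suffix _x_at marks probes that can match other transcripts, and Ins1 is closely similar in sequence, so this signal may come from both insulin genes. It was surpassed by 79 of 45037 probe sets on the control array and by 95 on the other.

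Iapp had 4 probe sets. The brightest, 1423509_a_at, read 52958 in the control pool and 39770 in the threonine-deficient one, a log2 ratio of −0.41. The second, 1437323_a_at, read 41652 and 31878 (−0.39), and the third, 1423510_at, read 17406 and 12226 (−0.51). The dimmest, 1456004_x_at, read 2748 and 2749 (0.00). The brighter 3 thus gave close values, with a mean of −0.44 ± 0.07 (SD over 3 probe sets of the same 2 arrays), while the fourth stood 0.44 above that mean. Over all 4 probe sets the mean was −0.33 ± 0.22 (SD), a spread that covers probe differences only and not differences between animals. The dimmest carries the same sharing suffix as the insulin probe set.

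Gcg encodes proglucagon, the precursor that alpha cells cleave to glucagon. Its signal was 21772 in the control pool and 17753 in the threonine-deficient one (1425952_a_at), which left 81.5% of the control value and a log2 ratio of −0.29. The suffix _a_at marks a probe set that reads alternative transcripts of a gene.

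Sst encodes the precursor of somatostatin, the inhibitory hormone of delta cells, and is also made by neurons and by endocrine cells of the gut. Its signal was 2373 in the control pool and 1252 in the threonine-deficient one (1417954_at). This was 52.8% of the control value, or 1.90-fold lower, with a log2 ratio of −0.92. On the control array 2894 probe sets were brighter than that of Sst, and on the other array 5278 were.

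Ppy and Pyy belong to the neuropeptide Y family and are neighbours in the RefSeq annotation, with 0 genes between them. Ppy, the product of PP cells, read 818 in the control pool and 806 in the threonine-deficient one (1420440_at), a log2 ratio of −0.02. Pyy read 1858 and 1359 (1424865_at), 73.2% of the control value, a log2 ratio of −0.45. The ratios of these adjacent genes thus differed by 0.43 in log2 between single probe sets, which is within the joint spread given below for this pair.

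Ghrl encodes ghrelin, the hormone of epsilon cells, which are rare in the adult pancreas, and of the stomach. Its signal was 147 in the control pool and 93.8 in the threonine-deficient one (1448980_at). Both values lay below the floor, so no ratio is given. Mboat4, the acyltransferase that activates ghrelin, was also below it, with 25.9 and 48.0.

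The spread of other probe sets at like brightness was also taken. For each hormone the 500 measured probe sets nearest to it in mean signal were taken, and the scaled median absolute deviation of their log2 ratios is called the local spread. It compares other probe sets between the same pools, so it includes differences of their genes between these pools as well as noise. Other probe sets of the same gene were not left out, so some neighbours counted as low for Iapp below are Iapp probe sets themselves. The local spread does not show how far animals or pools of the same group differ, and does not take the place of replicates. For Sst the local spread was 0.26, and 1 of the 500 neighbours had a ratio as low as −0.92. For the brightest Iapp probe set it was 0.11, with 6 of 500 as low, and the next 2 Iapp probe sets had 10 and 6 of 500 as low. In units of the local spread those readings lay 3.43 to 3.68 below 0, and Sst 3.51. Gcg lay 2.19 local spreads below 0, with 35 of 500 as low. Ins2 lay 1.73 below, with 52 of 500 as low, and Pyy 1.63 below, with 26 of 500 as low. The neighbours' median was itself −0.07 for Gcg and −0.08 for the third Iapp probe set, and distances from these medians are shorter. Ppy, with a local spread of 0.39 and 239 of 500 as low, and the dimmest Iapp probe set, with 320 of 500 as low, sat in the middle of their neighbours. Neighbours in signal of the brightest hormones span a wide range, from 12780 to 269000 for Ins2, because few probe sets are that bright.

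**Figure D2:**
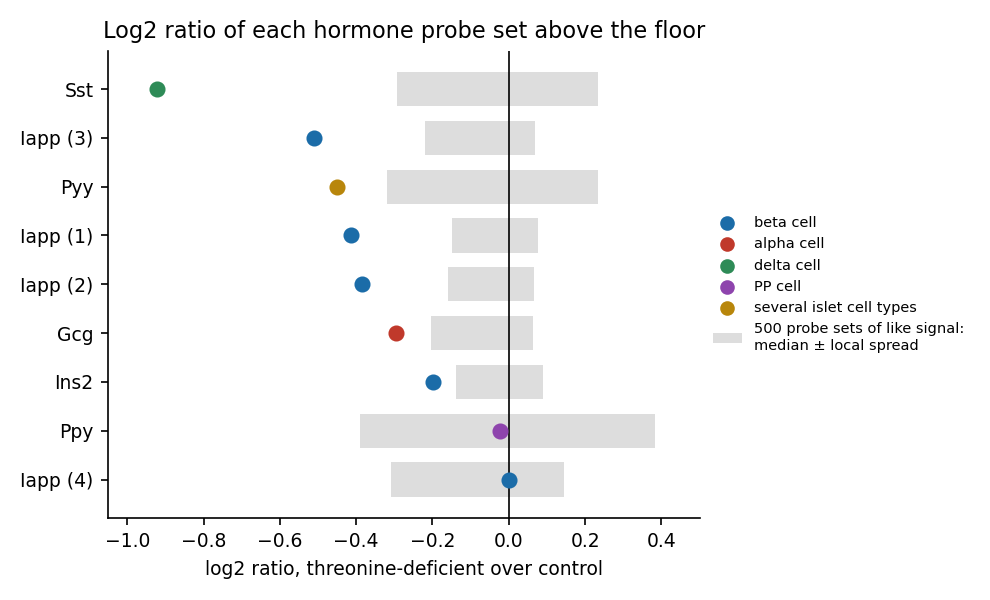
Log2 ratio of the threonine-deficient over the control pool for the 9 hormone probe sets above the floor, coloured by cell type, with grey bars for the median ± local spread of the 500 probe sets of like signal. Sst (−0.92) and the 3 brighter Iapp probe sets (−0.51 to −0.39) lie farthest outside their grey bars, while Ppy and the dimmest Iapp probe set lie inside.

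**Figure D3:**
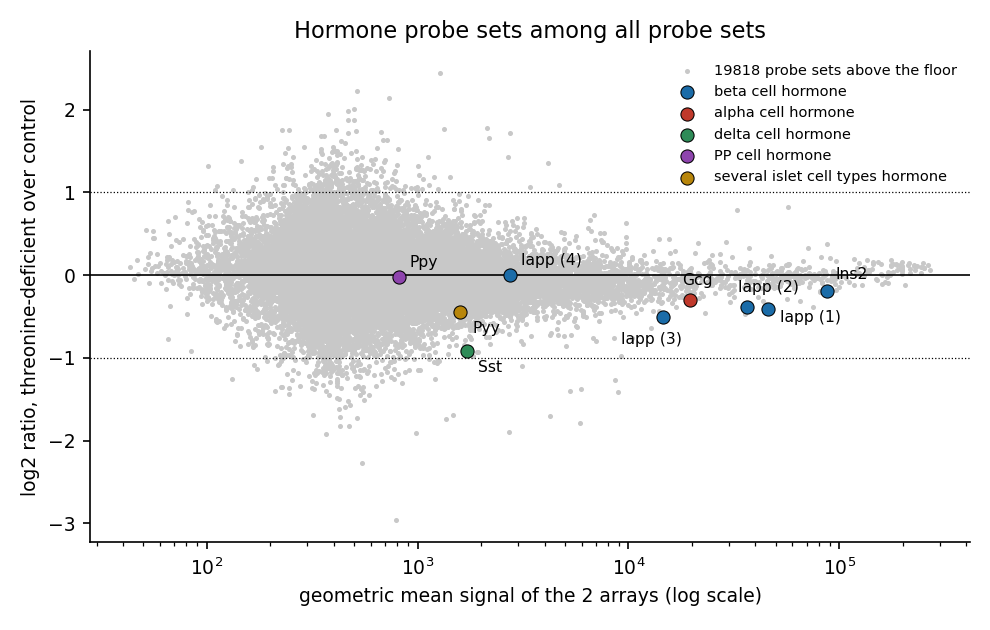
Log2 ratio against the geometric mean signal of both arrays (log axis) for the 19818 probe sets above the floor on at least 1 array, with hormone probe sets coloured by cell type and dotted lines at 2-fold. The cloud narrows as signal rises, so a ratio of −0.41 for the brightest Iapp probe set lies near its lower edge, while Pyy at −0.45 lies within a wider part.

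Transcripts added during sample preparation or hybridisation were read as well, and they carry technical variation only, with none between animals or pools. The 24 probe sets of polyadenylated controls had log2 ratios from −0.39 to 0.53 and the 18 probe sets of hybridisation controls had −0.32 to 0.06, and the ratios of Ins2, Gcg and Ppy lay within both ranges. Those of Sst, Pyy and the 2 Iapp probe sets at −0.41 and −0.51 lay below both ranges. The Iapp value of −0.39 was within the first range at its edge, and that of 0.00, from the dimmest Iapp probe set, was within both. The controls were not matched to the hormones in brightness, so a value outside these ranges is not thereby shown to exceed technical variation.

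Ratios between hormones on an array do not depend on how the array was scaled. The size of such a ratio reflects the probes as well as the transcripts, so it is the change between arrays that carries information. The signal of Ins2 was 4.31 times that of Gcg in the control and 4.60 times in the threonine-deficient pool, a log2 change of 0.10. Ins2 and Gcg thus kept nearly the same proportion on both arrays, within a joint local spread of 0.18, the root of the summed squares of both local spreads. Ins2 to Iapp, both products of beta cells, went from 1.77 to 2.06, a log2 change of 0.22 against a joint spread of 0.16. Iapp to Gcg went from 2.43 to 2.24, a log2 change of −0.12.

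In log2 change, the pairs with somatostatin had the 5 largest absolute values of the 15. Each log2 change is the difference of the log2 ratios of the 2 hormones, so this order follows from the low ratio of Sst. Ins2 to Sst went from 39.5 to 65.3, a log2 change of 0.73 against a joint spread of 0.29. Gcg to Sst went from 9.18 to 14.2, a log2 change of 0.63 against 0.29. Iapp to Sst went from 22.3 to 31.8 (0.51, against 0.29), Sst to Pyy from 1.28 to 0.92 (−0.47, against 0.38) and Sst to Ppy from 2.90 to 1.55 (−0.90, against 0.47). In units of the joint spread the order differed, with Sst to Pyy at −1.24 and Ins2 to Iapp at 1.35. Among the 15 pairs, 2 changed by more than 2 joint spreads, and both were pairs with Sst, Ins2 to Sst and Gcg to Sst. The 10 pairs without Sst changed by 0.04 to 0.43 in absolute value. The largest of these, Pyy to Ppy, went from 2.27 to 1.69 (−0.43), within its joint spread of 0.47. Pairs share hormones, so they are not independent of one another.

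**Figure D4:**
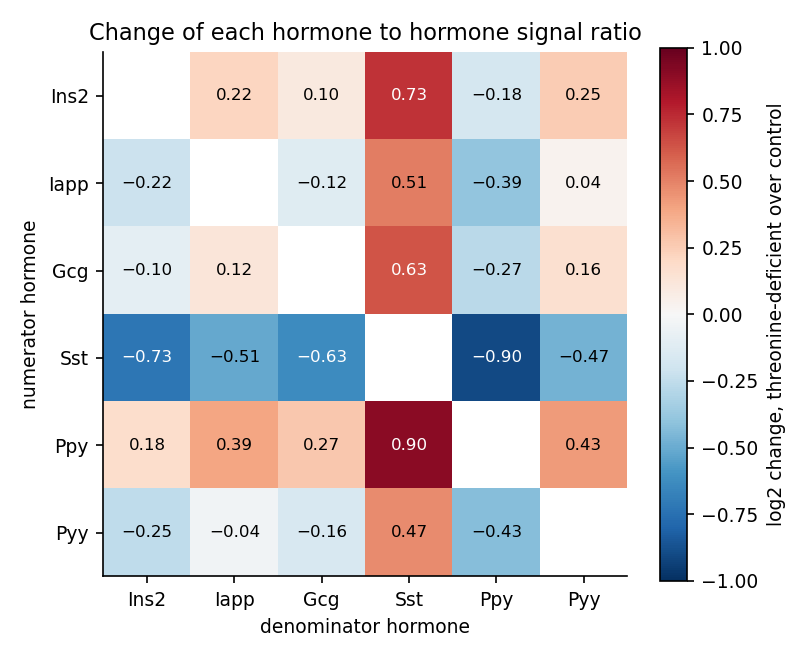
Log2 change between the arrays of the signal ratio of each hormone (row) to each other hormone (column), each gene read by its brightest probe set. The row of Sst holds negative values throughout, from −0.90 against Ppy to −0.47 against Pyy, whereas Ins2 against Gcg is 0.10. Each value is the difference between the log2 ratios of the row and column hormones, so the Sst row follows from its low ratio.

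Genes that process and store the hormones also had lower signals in most cases. The list of prohormone processing and granule genes held 22 genes, 21 with a probe set and 18 above the floor. Of these, 15 were lower and 3 higher, where 49.9% of all genes above the floor were lower. The median log2 ratio of the list was −0.41 beside 0.00 for all genes. At least 1.5-fold lower was 1 gene, Resp18, a granule protein, which read 629 in the control pool and 393 in the threonine-deficient one (−0.68); the share among all genes was 5.36%. Pam, which amidates peptide hormones such as amylin, went from 1164 to 777 (−0.58), and Slc30a8, the zinc transporter of insulin granules, from 625 to 420 (−0.57). Chga, chromogranin A of endocrine granules, read 2251 and 1591 (−0.50). The vesicle fusion gene Vamp2 went the other way, from 669 to 1206 (0.85), the one member at least 1.5-fold higher, against 7.20% of all genes. Cpe, which trims prohormones, had −0.20 in its brightest probe set and 0.96 in another, a bound because its control signal was under the floor. Other probe sets of Rab3a (0.92) and Syt7 (0.14 and, as a bound, 0.66) were also higher, and that of Ptprn2 (−0.22) was lower. The prohormone convertase Pcsk1 read 345 and 216, the latter under the floor, so its −0.38 is a bound.

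Markers of the islet cell types themselves were above the floor for 8 beta, 1 alpha and 2 delta cell genes. Some genes, such as Slc30a8, Glp1r and Hhex, stand in more than 1 list. Of 13 beta cell markers, 11 had a probe set and 8 were above the floor, 5 lower and 3 higher, with a median of −0.11. The share of lower genes among all genes above the floor was 49.9%. The glucose transporter gene Slc2a2 read 563 and 232, at least 2.12-fold lower with the second value under the floor. G6pc2, a glucose-6-phosphatase of beta cells, had −0.44, whereas Glp1r, the receptor for an incretin made from the Gcg precursor, went from 622 to 973 (0.65). Ucn3, Nkx6-1 and Trpm5 lay under the floor. Of 6 alpha cell markers only Ttr, a thyroid hormone carrier that is also made by the liver, was above the floor, from 13714 to 11538 (−0.25). Of 3 delta cell markers, Rbp4 had −0.46 and Hhex, a transcription factor of delta cells, had 0.09, while Ghsr, the ghrelin receptor, was under the floor. The median of these last 2 measured genes was −0.18, and they lay on opposite sides of 0.

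Regulators of hormone genes and hormone receptors were mostly dim. Of 14 regulators, 10 had a probe set and 5 were above the floor, 2 lower and 3 higher, with a median of 0.09. Beside these counts and those of the receptors below, 49.9% of all genes above the floor were lower. Pdx1, the activator of the insulin and somatostatin genes, read 331 and 390 (0.24), and Foxa2 read 1386 and 947 (−0.55). Neurod1 (−0.08) and Isl1 (0.15) were each under the floor on 1 array. Of 18 receptor genes 6 were above the floor, 2 lower and 4 higher, with a median of 0.17. The somatostatin receptor gene Sstr2 went from 603 to 1068 (0.83), the highest ratio of the list, and Insr, the insulin receptor, read 2352 and 2337 (−0.01). Npy4r, the receptor for pancreatic polypeptide, had 0.19, Ramp2 0.14 and Ramp1, a partner of the amylin receptor, −0.07. The receptors for glucagon (Gcgr) and ghrelin (Ghsr) were below the floor, as were the brightest probe sets of Sstr1, Sstr3, Sstr4 and Sstr5.

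**Figure D5:**
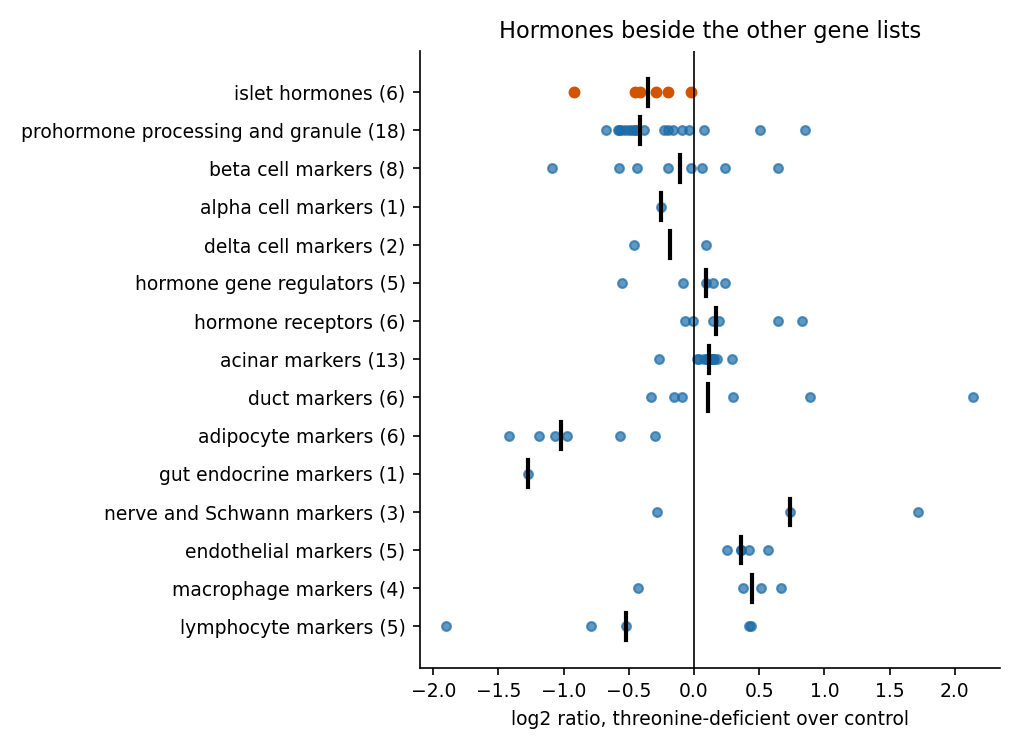
Log2 ratio of each gene above the floor, by list, with the number of genes in brackets and a black bar at the median; values with 1 signal under the floor are bounds. Hormones (median −0.35) and granule genes (−0.41) lie mostly left of 0, acinar markers (0.12) mostly right of it, and adipocyte markers (−1.02) farthest left among lists of more than 1 gene.

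Markers of other cell types also differed between the pools. Among all genes above the floor, 49.9% were lower. Acinar markers were bright on both arrays, with 13 of 15 genes above the floor, 12 higher and 1 lower, a median of 0.12 and a summed signal of 1954740 in the control pool and 2107080 in the threonine-deficient one. Adipocyte markers were lower in 6 of 6 genes above the floor, with a median of −1.02 and a summed signal of 42631 and 23158. Car3, a carbonic anhydrase of fat cells, had −1.42, Cidec at least 2.28-fold lower signal, and Adipoq −1.06, while Lep was under the floor. Lymphocyte markers had a median of −0.52 over 5 genes, 3 lower and 2 higher, and a summed signal of 11317 and 6192. Ighm was at −1.90 in its brightest probe set and at −0.75, 0.57, −0.63 and −0.94 (a bound) in its other measured ones. Cd79a and Cd3e were under the floor. Endothelial markers were higher in 5 of 5 genes, with a median of 0.36 and a summed signal of 1872 and 2785. Macrophage markers were higher in 3 of 4 genes, with a median of 0.44, or 0.09 with the floor at percentile 75, and a summed signal of 5959 and 6242. Duct markers were lower in 3 and higher in 3 of 6 genes, from Krt18 at −0.33 to Car2 at 2.14, with Krt7 and Cftr under the floor and a summed signal of 24866 and 23264. Their median was 0.11, but −0.09 with the floor at percentile 50 or 75. It was 0.60 when probe sets with a letter suffix (_a_at, _s_at or _x_at) were left out. Whether a different share of these cells in the pools contributed to the hormone values was not tested.

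Sst, Pyy and Ghrl are made in the gut, and Sst in neurons, so markers of those tissues were read too. All 6 intestinal epithelium markers were below the floor, summing to 443 in the control pool and 575 in the threonine-deficient one. Of 8 gut endocrine markers, 7 had a probe set and 1 was above the floor, Sct, the secretin gene, with 641 in the control pool and 153 in the threonine-deficient one, at least 2.42-fold lower. Gip, Cck, Nts, Tph1, Gast and Neurog3 were below the floor. The summed signal of the list was 937 and 543. Nerve and Schwann cell markers were above the floor in 3 of 10 genes, Npy (−0.28), Sox10 (0.74) and Dbh (at least 3.29-fold higher), and summed to 2142 and 2999. Their part in the Sst value was not tested.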

How the data were processed

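Pancreas RNA of 2 pools, 1 per maternal diet, was measured on 1 Affymetrix array each. The deposited values are a linear signal intensity per probe set made with MAS5, per the submitters' processing notes, with its version not given in the sources used here. The 2% trimmed mean was 500.0 on both arrays, so each array had been scaled as a whole, and a difference in total mRNA cannot be seen. The table held 45101 probe sets, 64 of them controls; 34945 of the others carried 1 gene symbol, 932 several and 9160 none. Symbols were updated through gene identifiers to RefSeq (34741 matched). Log2 ratios were computed with Python 3.11.15, with the floor described above. Genes were read by their brightest probe set. The named genes were all hormone probe sets and, of each of 15 lists, up to 4 members of largest absolute ratio, with further list members added after their values were seen. Members and lists were chosen with earlier results of these data known. With 1 array per group no test was possible, and the number of arrays limits the precision. Alternatives were median centring, removal of a loess trend, other floors, a pseudocount and other choices of probe set. The procedure was tested on simulated data.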

Additional observations from a re-analysis of the deposited data

How the results depend on the processing

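No paired analysis was possible because each group had 1 pool and no test was made, and no array could be left out. Of 355 values recomputed under 9 alternatives, 345 moved by less than the local spread (counts by at most 1.5 times) and 10 by more, all of those 10 medians of lists other than the hormones. Part of the hormone values could not move. The other floors and the absence of a floor left each measured hormone ratio unchanged, and median centring cannot change a ratio between hormones. Leaving out probe sets of several symbols removed no hormone probe set. The hormone median ranged from −0.48, without probe sets of a letter suffix (_a_at, _s_at or _x_at), to −0.31. That alternative left out Ins2 and Gcg and read Iapp at −0.51. Sst ranged from −0.93 to −0.80, and all 6 hormone genes kept a negative sign, Ppy between −0.03 and −0.02. With median centring, 9 of 9 hormone probe sets were lower, the dimmest Iapp probe set at −0.01. Iapp relative to Pyy took either sign, from −0.06 to 0.05. The granule list ranged from −0.46 to −0.17, the regulator list from −0.23 to 0.17, the duct list from −0.09 to 0.60, the adipocyte list from −1.03 to −0.64, and the gut endocrine list, 1 gene at the floor used, from −2.06 to −0.32. Lymphocyte and nerve lists reached 0.00 with the median over probe sets. The macrophage list ranged from 0.09 to 0.44. Acinar markers stayed between 0.11 and 0.13. Values of dim genes depend on the floor, and the brightest hormone signals lie where arrays can compress differences, which was not tested.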
